A study of Mus musculus with 12 samples.

Results

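Serotonin acts on neurons through a family of receptors whose genes are named Htr, and the 10 members that were chosen by name from the 18558 genes of the count table were Htr1a, Htr1b, Htr2a, Htr2c, Htr3a, Htr4, Htr5a, Htr5b, Htr6 and Htr7. They were followed in the CA1 pyramidal layer of mice that lack the DNA glycosylase NEIL1, NEIL2 or both. These enzymes cut oxidised bases out of DNA as the first step of base excision repair, and the study asked whether their loss also changes which genes are transcribed in the hippocampus. The groups were Neil1-/-Neil2-/- (2 mice), Neil1-/- (2 mice), Neil2-/- (3 mice) and wild-type (WT, 3 mice), all male, 3 to 6 months old and on a C57Bl6 background, with 1 library per mouse. The mutants were knockout lines made earlier in the same laboratory, and the sources used here describe no agent or Cre for them. The mutant lines had been backcrossed onto C57BL/6N and were bred as separate lines, and the WT mice were C57BL/6N animals rather than littermates. Any difference between lines other than the deletion, such as sequence from the embryonic stem cells around the deleted gene, therefore cannot be told apart from the genotype.

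The Htr1 and Htr5 receptors couple to Gi/o proteins, which lower cyclic AMP and open potassium channels, and the Htr2 receptors couple to Gq, which activates phospholipase C. The Htr4, Htr6 and Htr7 receptors couple to Gs, which raises cyclic AMP, while Htr3a encodes the core subunit of the only ligand-gated ion channel of the family. In CA1, pyramidal neurons carry the 5-HT1A receptor on soma and dendrites, and the 5-HT3 channel sits mainly on a class of GABAergic interneurons derived from the caudal ganglionic eminence. The fibres that release serotonin come from the raphe nuclei of the brainstem.

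CA1 was cut by laser from 8-µm sections of the dorsal hippocampus, and each of the 10 libraries held 19618923 to 21970180 estimated counts. Levels are given as CPM, the count scaled to a common library total, with TMM factors that correct for library composition. The 8 markers of CA1 pyramidal neurons summed to 4948 to 5781 CPM in every library. Slc17a7 and Neurod6 were the largest of them in WT, at means of 1760 and 1012 CPM. No tissue from outside CA1 was sequenced, so this sum does not by itself check the dissection. Replicate 1 of Neil1-/-Neil2-/- stood apart in a principal component analysis, at -33.8 on the first component against -10.7 to 17.5 for the other 9 libraries, and replicate 2 of Neil1-/- was at 25.1 on the second, the highest value. For 2 further libraries the title and the genotype label disagree, and these were left out of every group. Neil2 mRNA was at 0 counts in all 5 libraries labelled as lacking NEIL2, which allows up to 3 counts in each, against 10 and 5 counts in Neil1-/- and 5 in each WT library. Neil1 mRNA was not reduced in the libraries labelled as lacking NEIL1. It was at 134 and 146 counts in Neil1-/-Neil2-/- and 161 and 119 in Neil1-/-, against 84, 81 and 82 in Neil2-/- and 69, 61 and 95 in WT, and averaged over both NEIL2 backgrounds it was higher by 0.86 on the log2 scale (adjusted p = 0.0192, edgeR). The position of the deletion within the gene was not used here, so whole-gene counts of Neil1 do not check those labels.

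All 10 receptor genes passed the filter on low counts and were tested. Divided by exon length, so that genes can be compared, Htr1a was the most abundant receptor mRNA of WT CA1 at 23.7 ± 0.59 CPM per kilobase (SD, n = 3), with all 3 libraries above those of every other receptor. Htr5b, which is thought not to yield a working receptor in humans but is intact in mice, came next at 11.9 ± 1.7 CPM per kilobase (SD, n = 3). Htr5a followed at 3.11 ± 0.25 CPM per kilobase (SD, n = 3), again without overlap with its neighbours in the order. Below it, Htr6 at 2.52 ± 0.28, Htr3a at 2.25 ± 0.51, Htr2c at 2.17 ± 0.47, Htr4 at 1.99 ± 0.58 and Htr1b at 1.69 ± 0.18 CPM per kilobase (SD, n = 3 each) formed a run in which each gene's WT libraries overlapped those of the next. Htr2a lay under this run at 1.23 ± 0.17 and Htr7 was lowest at 0.476 ± 0.17 CPM per kilobase (SD, n = 3 each).

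**Figure D1:**
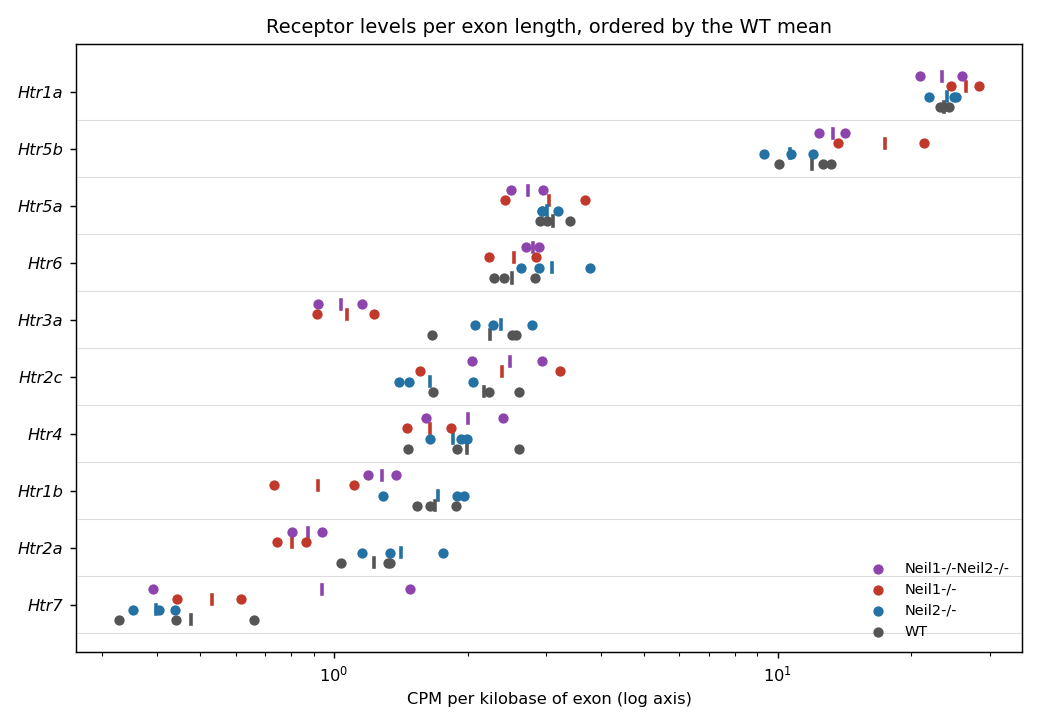
Level of each receptor mRNA in CPM per kilobase of exon on a log axis, with receptors ordered by their WT mean; each point is 1 mouse and each short line the mean of its genotype. Htr1a (23.7 CPM per kilobase in WT) and Htr5b (11.9) lie apart from the other 8 receptors in every genotype. Htr3a lies below Htr2c and Htr4 in the 4 libraries that lack NEIL1 and also in replicate 3 of WT.

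Htr1a and Htr5b were first and second per kilobase in all 10 libraries. Htr3a and Htr2c were among the receptors whose place in the order varied between libraries, and these ranks were not tested. Htr3a ranked 8 to 9 among the 10 receptors in Neil1-/-Neil2-/- and 7 to 8 in Neil1-/- libraries, against 4 to 5 in Neil2-/- and 4 to 7 in WT libraries. Htr2c ranked 4 to 5 in Neil1-/-Neil2-/- and 4 to 6 in Neil1-/- libraries, against 6 to 9 in Neil2-/- and 5 to 8 in WT libraries. Htr1a made up 47.6% to 60.8% of the summed CPM of the 10 genes in a library, with a median of 53.6%, and Htr3a 0.907% to 2.96%. The total itself was 197 and 207 CPM in Neil1-/-Neil2-/- and 210 and 227 CPM in Neil1-/-, against 208, 191 and 197 CPM in Neil2-/- and 206, 195 and 209 CPM in WT mice. Both Neil1-/- libraries lay above the other 8, and the other groups overlapped. This sum was not tested. These are bulk tissue values, in which fewer cells of a type and less RNA per cell cannot be told apart.

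Across the 4 genotypes, each receptor was compared with edgeR's quasi-likelihood test and p-values adjusted over the 13982 genes tested, with a threshold of 0.05. No receptor passed in Neil1-/-Neil2-/- against WT, where 0.322% of all genes tested did, in Neil1-/- against WT (0.2%) or in Neil2-/- against WT (0.3%). None passed in Neil1-/-Neil2-/- against Neil2-/- (0.222%), in Neil1-/-Neil2-/- against Neil1-/- (0.458%) or in the interaction (0.093%), which tests whether the loss of NEIL2 acts differently with and without NEIL1. At an unadjusted p under 0.05, 2 of the 10 receptors (Htr2a and Htr3a) were below the threshold in Neil1-/-Neil2-/- against WT, beside 11.1% of all genes. The count was 4 (Htr1b, Htr2a, Htr3a and Htr5b) in Neil1-/- against WT, beside 8.98%, and 3 (Htr2a, Htr3a and Htr7) in Neil1-/-Neil2-/- against Neil2-/-, beside 10.6%. It was 0 in Neil2-/- against WT (9.65%), in Neil1-/-Neil2-/- against Neil1-/- (13%) and in the interaction (5.52%). DESeq2 called 1 receptor, Htr3a, in Neil1-/-Neil2-/- against WT and against Neil2-/-, and none in the other 4 comparisons, and limma voom called none in any of the 6.

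**Figure D2:**
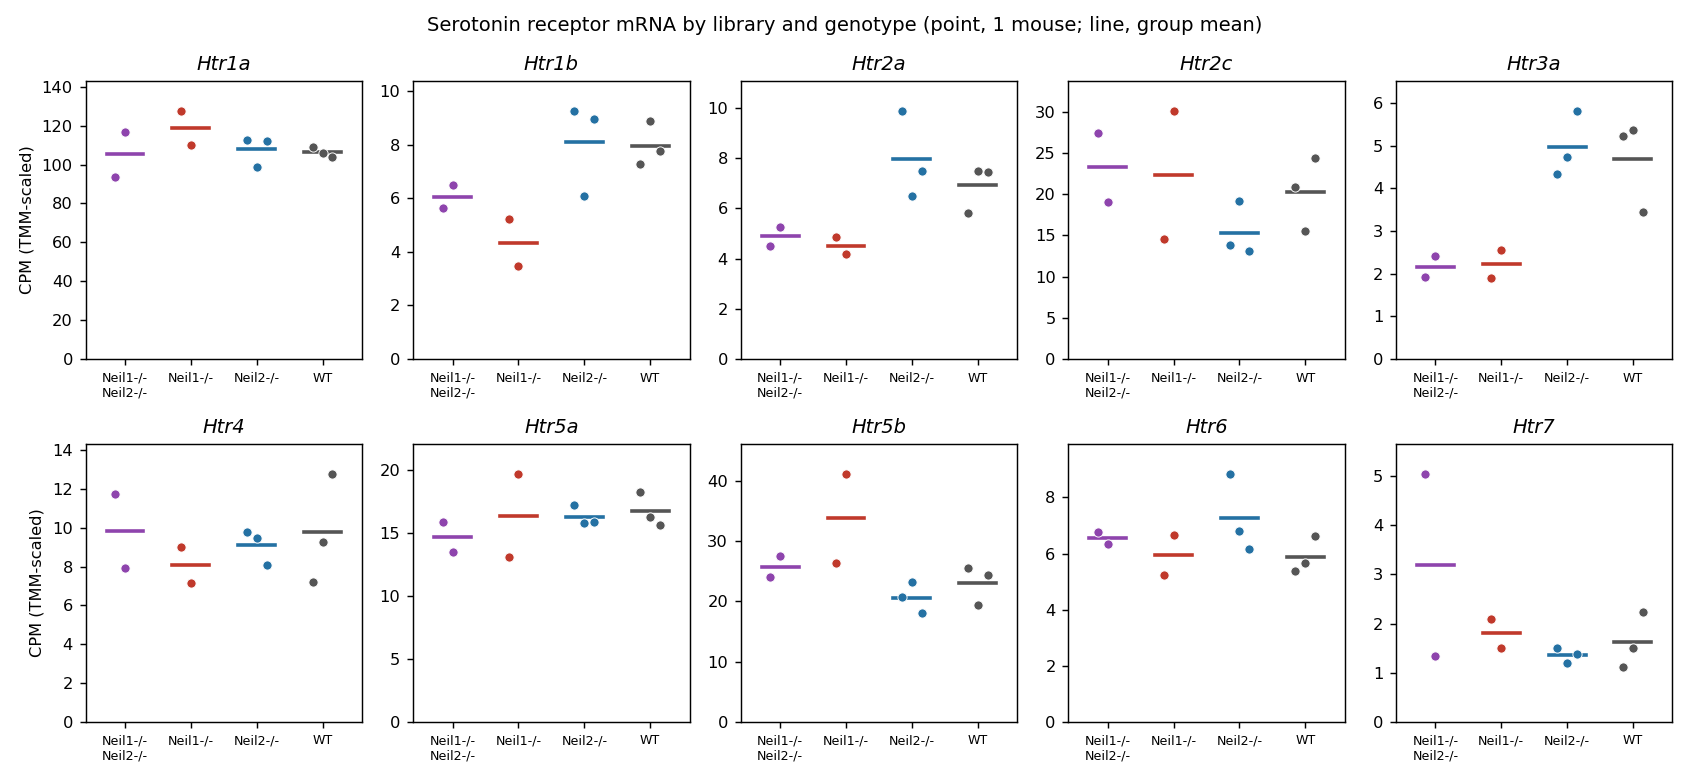
CPM of each receptor mRNA in each library, with 1 panel per gene and its axis starting at 0; each point is 1 mouse and each line the mean of its genotype (2, 2, 3 and 3 mice). Htr3a lies at 1.91 to 2.56 CPM in the 4 libraries that lack NEIL1 and at 3.46 to 5.82 CPM in the other 6, and the high Htr7 mean of Neil1-/-Neil2-/- comes from 1 mouse.

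Htr3a, the channel subunit, had its lowest levels in the libraries that lack NEIL1. Its level was 1.91 and 2.41 CPM in Neil1-/-Neil2-/- and 1.91 and 2.56 CPM in Neil1-/- mice, against 4.33, 4.74 and 5.82 CPM in Neil2-/- and 5.23, 5.37 and 3.46 CPM in WT mice. The 4 libraries that lack NEIL1 all lay under the 6 that have it, whatever their NEIL2 genotype. In counts, these are 39 and 49 in Neil1-/-Neil2-/- and 40 and 51 in Neil1-/-, against 93, 95 and 119 in Neil2-/- and 108, 111 and 74 in WT. The fitted log2 fold change was -1.11 in Neil1-/-Neil2-/- against WT (SE 0.27, adjusted p = 0.126, edgeR) and -1.07 in Neil1-/- against WT (SE 0.26, adjusted p = 0.223, edgeR), which is 0.463 and 0.477 times the WT level. It was -1.20 in Neil1-/-Neil2-/- against Neil2-/- (SE 0.27, adjusted p = 0.126, edgeR), a comparison that shares no library with Neil1-/- against WT. Loss of NEIL2 gave 0.08 in Neil2-/- against WT (SE 0.22) and -0.04 in Neil1-/-Neil2-/- against Neil1-/- (SE 0.30), and the interaction was -0.13 (SE 0.37, adjusted p = 0.985, edgeR).

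A contrast chosen after these values were seen averaged the effect of NEIL1 loss over both NEIL2 backgrounds, with 4 libraries lacking NEIL1 against 6 that have it. In it Htr3a passed the test with a log2 fold change of -1.13 (SE 0.19, adjusted p = 0.0199, edgeR), or 0.456 times the level with NEIL1. It was the 1 receptor of 10 called, where 0.451% of all genes tested were called and 0.243% were called lower. Htr3a and Htr2a had all 4 libraries under the other 6, beside 1.29% of all genes tested, and 4 receptors (Htr1b, Htr2a, Htr3a and Htr5b) were at an unadjusted p under 0.05, beside 14.1%. The call was lost when any 1 of 5 libraries was left out, with adjusted p = 0.109 without replicate 1 of Neil1-/-Neil2-/- and 0.0539 to 0.0686 without replicates 2 or 3 of Neil2-/- or replicates 1 or 2 of WT, and the fold change then stayed between -1.15 and -1.05 (edgeR). DESeq2 put Htr3a past the threshold in Neil1-/-Neil2-/- against WT (adjusted p = 0.0338) and against Neil2-/- (adjusted p = 0.0184), but not in Neil1-/- against WT (adjusted p = 0.0744). The corresponding contrast for NEIL2 loss gave Htr3a 0.02 (SE 0.19) and called no receptor, beside 1.97% of all genes. In it 1 receptor, Htr5b, was at an unadjusted p under 0.05 (-0.28, SE 0.13), beside 16.9%, none had libraries that did not overlap, beside 3.68%, and neither DESeq2 nor limma voom called one. Htr3a is among the genes that the study itself names from these libraries, so its direction here is no independent evidence.

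**Figure D3:**
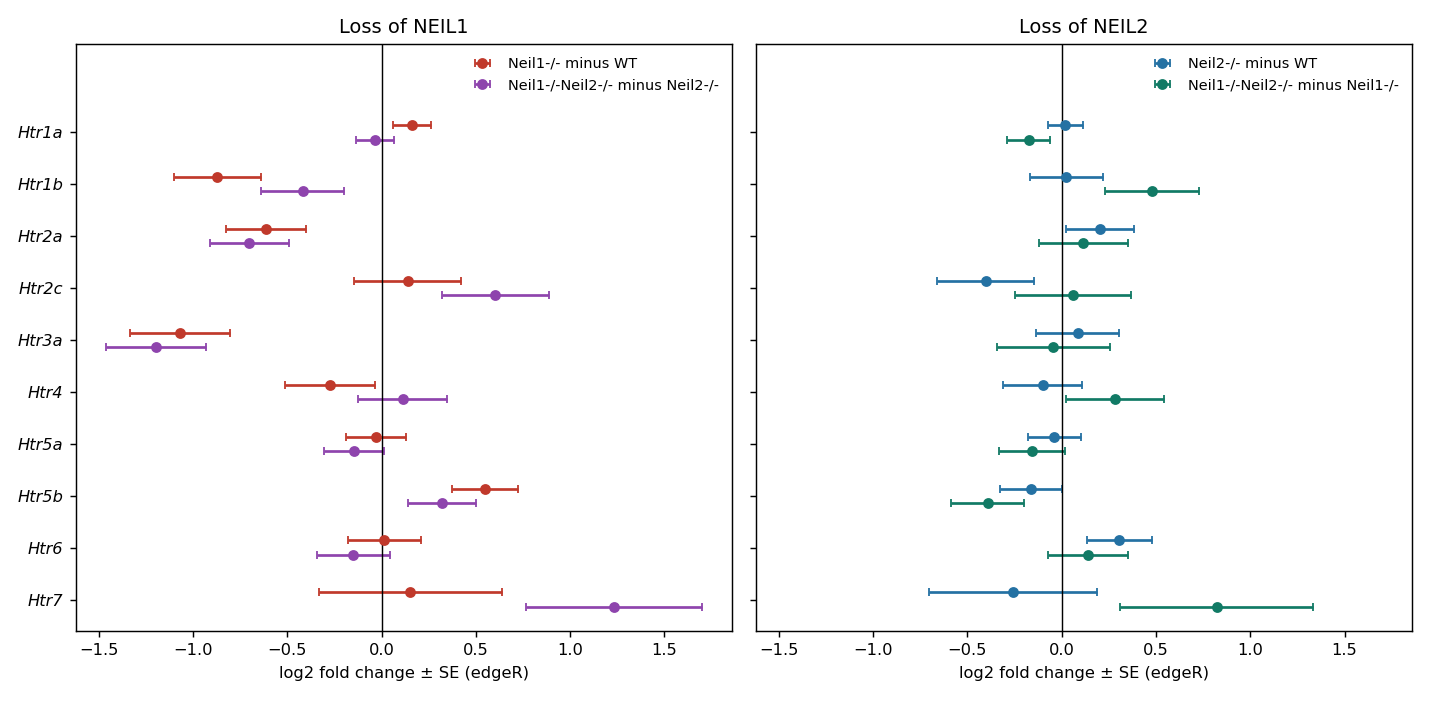
Log2 fold change ± SE (edgeR) of each receptor for the loss of NEIL1 (left, with and without NEIL2 absent) and the loss of NEIL2 (right, with and without NEIL1 absent); points left of 0 are lower in the genotype named first. Htr3a lies at -1.07 and -1.20 for NEIL1 loss and at 0.08 and -0.04 for NEIL2 loss, and Htr2a at -0.61 and -0.70 against 0.20 and 0.12.

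Htr2a and Htr1b had lower levels along with Htr3a in the libraries that lack NEIL1, without passing the adjusted test. The 5-HT2A receptor couples to Gq and is the main target of classical psychedelic drugs in cortex. Its mRNA was at 4.51 and 5.27 CPM in Neil1-/-Neil2-/- and 4.86 and 4.17 CPM in Neil1-/- mice, against 9.88, 6.49 and 7.48 CPM in Neil2-/- and 5.81, 7.49 and 7.43 CPM in WT mice. Here too the 4 libraries lacking NEIL1 lay under the other 6. The log2 fold change was -0.50 in Neil1-/-Neil2-/- against WT (SE 0.21, adjusted p = 0.407, edgeR), -0.61 in Neil1-/- against WT (SE 0.21, adjusted p = 0.456, edgeR) and -0.70 in Neil1-/-Neil2-/- against Neil2-/- (SE 0.21, adjusted p = 0.239, edgeR). Averaged over both backgrounds it was -0.66 (SE 0.15, adjusted p = 0.104, edgeR). DESeq2 gave an adjusted p of 0.0160 for that average, and edgeR without the filter on low counts gave 0.0380, so the call on Htr2a turned on the tool and filter.

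The 5-HT1B receptor, an autoreceptor on serotonin terminals that also sits on axons of CA1 pyramidal cells, couples to Gi/o. Htr1b mRNA was at 5.64 and 6.50 CPM in Neil1-/-Neil2-/- and 5.24 and 3.46 CPM in Neil1-/- mice, against 9.27, 6.09 and 8.95 CPM in Neil2-/- and 7.27, 8.89 and 7.76 CPM in WT mice. Neil1-/-Neil2-/- and Neil1-/- lay under all WT libraries, but replicate 2 of Neil2-/- lay within the range of Neil1-/-Neil2-/-. The log2 fold change was -0.39 in Neil1-/-Neil2-/- against WT (SE 0.22, adjusted p = 0.543, edgeR) and -0.87 in Neil1-/- against WT (SE 0.23, adjusted p = 0.275, edgeR), and the average over both backgrounds was -0.64 (SE 0.16, adjusted p = 0.137, edgeR). With DESeq2 the adjusted p of that average was 0.0244. In Neil1-/-Neil2-/- against WT 3 of the 10 receptors (Htr1b, Htr2a and Htr3a) had all libraries under those of WT, beside 14.6% of all genes tested. In Neil1-/- against WT the same 3 had all libraries under WT, beside 13.8%, and Htr1a and Htr5b had all above it, beside 12.7%. Against Neil2-/-, Neil1-/-Neil2-/- had Htr2a and Htr3a under all libraries, beside 13.4%, and Htr5b above, beside 13.3%, and against Neil1-/- it had Htr1b above, beside 22.7%. In Neil2-/- against WT every receptor overlapped, where 15.3% of all genes did not.

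The promoter windows of Htr1b and Htr2a are shown because their levels were lower beside that of Htr3a. RefSeq windows of GRCm38.p6, from 250 bases before to 50 after the gene start, were at hand for 7 of the 10 receptors. The window of Htr1b is chr9:81633783-81634082 on the minus strand and that of Htr2a is chr14:74640624-74640923 on the plus strand, and capitals mark CG, a site of DNA methylation in mammals.
Htr1b: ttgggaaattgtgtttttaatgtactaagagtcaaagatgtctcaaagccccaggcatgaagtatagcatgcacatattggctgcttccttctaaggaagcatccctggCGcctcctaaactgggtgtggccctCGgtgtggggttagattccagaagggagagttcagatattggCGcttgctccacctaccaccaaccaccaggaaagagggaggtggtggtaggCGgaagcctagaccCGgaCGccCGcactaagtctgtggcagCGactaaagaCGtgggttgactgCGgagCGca
Htr2a: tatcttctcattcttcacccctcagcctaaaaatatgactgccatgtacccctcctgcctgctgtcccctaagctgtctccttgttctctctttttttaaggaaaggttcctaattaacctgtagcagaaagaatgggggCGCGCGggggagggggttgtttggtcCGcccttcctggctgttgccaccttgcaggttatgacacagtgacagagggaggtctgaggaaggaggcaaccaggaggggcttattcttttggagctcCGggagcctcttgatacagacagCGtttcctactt
The letters CG, which read the same on both strands, occur 11 times in the Htr1b window and 6 times in the Htr2a window. The median of the 32851 windows in the table is 7, and 94.6% of them hold at least 1. Htr7 has the most of the receptors with 46, a number that 1.6% of all windows reach. Htr1a has 7, Htr2c 5 and Htr5a 14, and the 2 windows of Htr6 have 10 and 29. Methylation was not measured in these libraries.

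The remaining Gi/o-coupled receptors showed no shift that held in both backgrounds and passed the test. Htr1a, which restrains pyramidal cell firing through potassium channels, was at 93.7 and 116.7 CPM in Neil1-/-Neil2-/-, 128 and 110 CPM in Neil1-/- and 113, 98.5 and 112 CPM in Neil2-/- mice, against 109, 106 and 104 CPM in WT mice. The largest of its fitted differences from WT was 0.16 on the log2 scale in Neil1-/- (SE 0.10, adjusted p = 0.668, edgeR). Htr5b was at 24.0 and 27.5 CPM in Neil1-/-Neil2-/- and 26.4 and 41.3 CPM in Neil1-/- mice, against 20.7, 23.2 and 18.0 CPM in Neil2-/- and 25.5, 19.4 and 24.4 CPM in WT mice. It had a log2 fold change of 0.55 in Neil1-/- against WT (SE 0.18, adjusted p = 0.433, edgeR), with replicate 2 of Neil1-/- far above the rest, and of 0.16 in Neil1-/-Neil2-/- against WT (SE 0.18). Averaged over both backgrounds, the effect of NEIL1 loss on Htr5b was 0.43 (SE 0.13, adjusted p = 0.192, edgeR). Htr5a was at 15.9 and 13.5 CPM in Neil1-/-Neil2-/- and 13.1 and 19.7 CPM in Neil1-/-, against 17.2, 15.8 and 15.8 CPM in Neil2-/- and 18.3, 16.2 and 15.7 CPM in WT. Its groups overlapped in all comparisons, with log2 fold changes against WT of -0.19 in Neil1-/-Neil2-/- (SE 0.16), -0.03 in Neil1-/- (SE 0.16) and -0.04 in Neil2-/- (SE 0.14).

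The Gs-coupled receptors overlapped with WT in every knockout. Htr4, which enhances pyramidal cell excitability, was at 11.8 and 7.93 CPM in Neil1-/-Neil2-/-, 9.005 and 7.18 CPM in Neil1-/- and 9.79, 9.49 and 8.07 CPM in Neil2-/- mice, against 7.22, 9.28 and 12.8 CPM in WT mice. The WT mice alone spanned the levels of all knockouts for this gene save the lowest Neil1-/- library. Htr6, a receptor found almost only in the brain, was at 6.77 and 6.35 CPM in Neil1-/-Neil2-/-, 5.24 and 6.68 CPM in Neil1-/- and 8.85, 6.79 and 6.16 CPM in Neil2-/-, against 5.38, 5.66 and 6.64 CPM in WT. Its log2 fold change in Neil2-/- against WT was 0.30 (SE 0.17, adjusted p = 0.620, edgeR). Htr7 was at 5.05 and 1.33 CPM in Neil1-/-Neil2-/-, 2.10 and 1.51 CPM in Neil1-/- and 1.49, 1.20 and 1.37 CPM in Neil2-/-, against 1.11, 1.498 and 2.24 CPM in WT.

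The Htr7 level was high in 1 library, replicate 1 of Neil1-/-Neil2-/-, while the other mouse of that genotype lay within the range of WT. The log2 fold change of 0.97 in Neil1-/-Neil2-/- against WT (SE 0.46, adjusted p = 0.462, edgeR) and of 1.23 against Neil2-/- (SE 0.47, adjusted p = 0.376, edgeR) rested on that library, and without it they were -0.28 and -0.026. The same library had the highest marker sums for striatum and thalamus, choroid plexus, oligodendrocytes and astrocytes. Its 12 markers of striatum and thalamus summed to 485 CPM, against 416 CPM in replicate 2 of the genotype, 273 to 370 CPM in Neil1-/- and Neil2-/- and 248 to 342 CPM in WT. Penk, Ppp1r1b and Pde10a, which CA1 libraries of every genotype contain, make up most of these sums. The markers of thalamus did not peak with Htr7: Tcf7l2 was at 5.74 and 0.936 CPM in Neil1-/-Neil2-/- and at 9.48 and 1.56 CPM in Neil1-/-, and Prkcd at 16.5 and 2.46 CPM in Neil1-/-Neil2-/- and at 25.7 and 1.71 CPM in Neil1-/-. In Neil2-/- and WT libraries Tcf7l2 was at 0.699 to 1.31 CPM and Prkcd at 1.30 to 2.15 CPM. The Neil1-/- library with the most Tcf7l2 and Prkcd had Htr7 at 2.10 CPM. Of the markers of striatum, Drd1, the D1 dopamine receptor of striatal neurons, was at 10.4 and 4.48 CPM in Neil1-/-Neil2-/-, 0.476 and 0.301 CPM in Neil1-/- and 0.326, 0.699 and 0.587 CPM in Neil2-/-, against 0.436, 0.532 and 0.888 CPM in WT. Of the 12 markers 4 were called in Neil1-/-Neil2-/- against WT, all higher: Drd1 (3.57, adjusted p = 0.00194, edgeR), Drd2 (2.94, adjusted p = 0.0403, edgeR), Adora2a (3.28, adjusted p = 0.0144, edgeR) and Ppp1r1b (0.94, adjusted p = 3.85e-04, edgeR). Without replicate 1 of that genotype, or replicates 1 or 2 of WT, Drd2 and Adora2a did not pass (adjusted p = 0.0812 to 0.183, edgeR), and Drd2 also lost its call without replicates 2 or 3 of Neil2-/- or replicate 3 of WT (0.0526 to 0.0691, edgeR). Against Neil2-/- a further marker, Rgs9, was called higher (1.21, adjusted p = 0.0192, edgeR). The part of tissue makeup in the Htr7 level was not tested.

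Htr2c, the Gq-coupled receptor whose transcript is edited and which is most abundant in choroid plexus, varied widely within groups. It was at 27.5 and 19.1 CPM in Neil1-/-Neil2-/-, 14.6 and 30.1 CPM in Neil1-/- and 13.8, 19.2 and 13.1 CPM in Neil2-/- mice, against 20.9, 15.6 and 24.4 CPM in WT mice. The 2 Neil1-/- mice held both the highest level of all 10 libraries and one of the lowest, so no genotype stood apart. Against Neil2-/-, Neil1-/-Neil2-/- gave 0.60 on the log2 scale (SE 0.28, adjusted p = 0.479, edgeR). The 11 choroid plexus markers summed to 464 and 212 CPM in Neil1-/-Neil2-/-, 170 and 84.0 CPM in Neil1-/- and 172, 116 and 161 CPM in Neil2-/-, against 118, 149 and 254 CPM in WT. Ttr, the defining secreted protein of that epithelium, was at 237 and 77.4 CPM in Neil1-/-Neil2-/-, 14.1 and 1.66 CPM in Neil1-/- and 24.1, 0.200 and 12.96 CPM in Neil2-/-, against 1.55, 0.628 and 109.7 CPM in WT, so 1 WT library lay above replicate 2 of Neil1-/-Neil2-/-. The library with the highest Htr2c level, replicate 2 of Neil1-/-, had the lowest choroid plexus sum. Kl and Enpp2, at 40.9 to 63.9 and 38.1 to 87.8 CPM in Neil1-/-, make up most of the sums of that genotype. By Ttr that library, at 1.66 CPM, was not the lowest, with 0.200 CPM in Neil2-/- and 1.55 and 0.628 CPM in WT libraries. The part of choroid plexus in the Htr2c level was not tested.

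**Figure D4:**
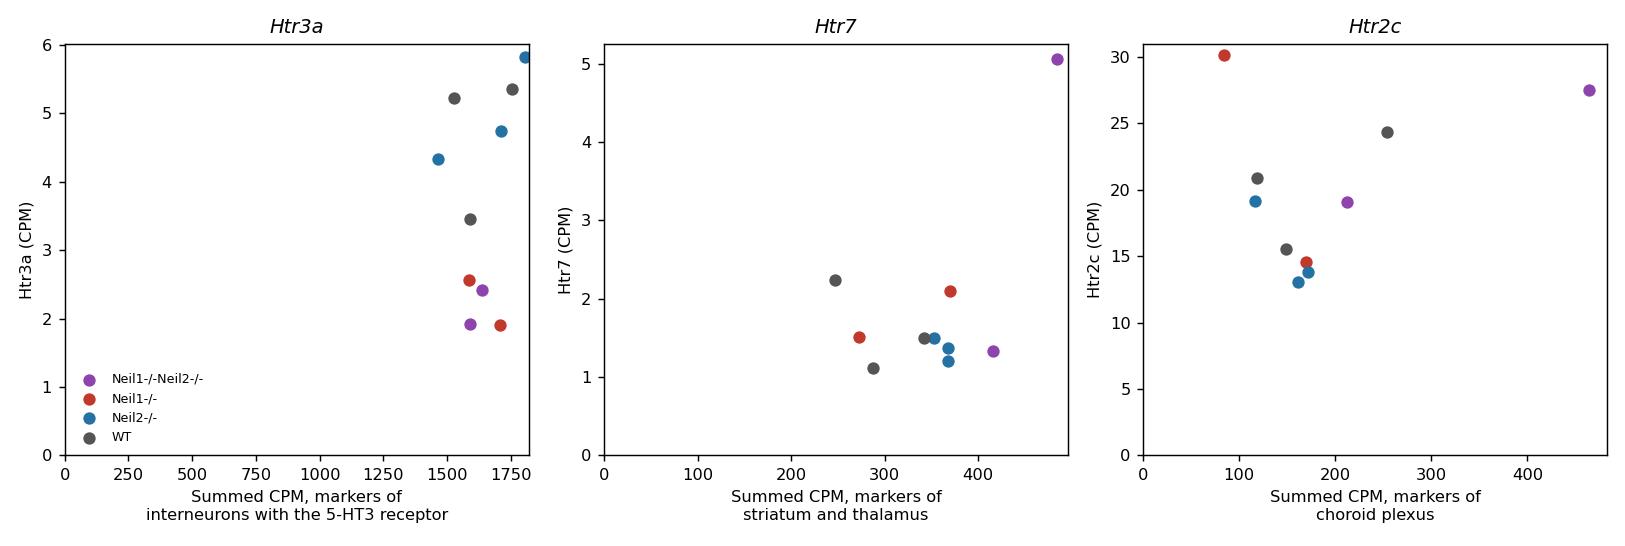
Level of Htr3a, Htr7 and Htr2c in each library (CPM, vertical axis) against the summed CPM of the markers of the cells named on the horizontal axis; each point is 1 mouse, coloured by genotype, and all axes start at 0. The libraries that lack NEIL1 have low Htr3a at interneuron marker sums of 1584 to 1709 CPM, within the span of the other libraries, and the highest Htr7 level falls in the library with the highest striatum and thalamus sum (485 CPM).

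The summed markers of the interneurons that carry the 5-HT3 channel overlapped between the genotypes with and without NEIL1. The 13 markers summed to 1588 and 1637 CPM in Neil1-/-Neil2-/- and 1709 and 1584 CPM in Neil1-/-, against 1462, 1709 and 1803 CPM in Neil2-/- and 1528, 1753 and 1588 CPM in WT, and none was at 0 in any library. Cck, which pyramidal neurons also express, makes up most of these sums. Gad1, also on the list, was at 126 to 148 CPM in Neil1-/-, under the 150 to 164 CPM of Neil2-/- and 153 to 192 CPM of WT. Gad2 was at 47.6 to 56.1 CPM in Neil1-/-, under the 64.4 to 71.9 CPM of Neil2-/- and 64.3 to 86.6 CPM of WT. In Neil1-/-Neil2-/-, where Htr3a was also low, Gad1 was at 160 to 184 CPM and Gad2 at 70.0 to 126 CPM. Vip, which marks a class of interneurons that target other interneurons, was at 19.1 and 22.4 CPM in Neil1-/-Neil2-/- and 22.9 and 28.5 CPM in Neil1-/-, against 18.0, 27.4 and 28.6 CPM in Neil2-/- and 26.3, 23.4 and 21.2 CPM in WT. Averaged over both backgrounds, the loss of NEIL1 moved Vip by -0.06 (SE 0.13) and Cnr1, the cannabinoid receptor of Cck interneurons, by -0.07 (SE 0.07) on the log2 scale. In that contrast 1 of the 13 markers was called, and it was higher: Ndnf, a marker of neurogliaform cells (0.97, SE 0.18, adjusted p = 0.0457, edgeR), which lost the call in 11 of 17 other settings. The list's median was 0.12, beside 0.0024 over all genes tested. Of the 13 markers 9 were above 0, up to 1.26, and 4 were below it, down to -0.09, with Vip and Cnr1 among those 4. Npy, a neuropeptide of several interneuron classes, was the 1 marker called in the main comparisons. It was lower in Neil2-/- than in WT, at 26.1, 24.1 and 22.9 CPM in Neil2-/- against 40.6, 42.7 and 44.8 CPM in WT (-0.81, SE 0.09, adjusted p = 0.00120, edgeR), and higher in Neil1-/-Neil2-/- than in Neil2-/- (0.73, adjusted p = 0.00682, edgeR). In Neil1-/- Npy was at 31.6 to 32.2 CPM, also under all WT libraries, without being called against WT. In Neil1-/-Neil2-/- it was at 36.9 to 44.0 CPM.

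Htr3a lies on chromosome 9 at 48899213 to 48911152 (GRCm38.p6), 8.23 Mb from Neil1 at 57142788 to 57148688. Genes around Neil1 were called more often than genes at large wherever NEIL1 was absent. Neil1 and Htr3a themselves were left out of these counts. Of 311 other genes tested within 20 Mb of Neil1, 12 (3.86%) were called in Neil1-/-Neil2-/- against WT, 8 (2.57%) in Neil1-/- against WT and 0 in Neil2-/- against WT. Among the 12 was Drd2, which is also on the list of striatum and thalamus markers. In the averaged contrast 30 (9.65%) were called, beside 0.451% of all genes tested, and 9 of the 72 genes tested between Neil1 and Htr3a. The tested genes next to Htr3a were mixed. Zbtb16, which encodes a zinc finger transcription factor and lies 63 kb away, had a log2 fold change of -0.42 in that contrast (adjusted p = 0.0389, edgeR), while Usp28, a deubiquitinase gene 74.2 kb away on the other side, was at -0.15 (adjusted p = 0.427, edgeR) and Zw10, a kinetochore gene 144 kb away, at 0.04 (adjusted p = 0.855, edgeR). The Zbtb16 call was lost in 10 of 17 other settings. Gm5617, 403 kb from Htr3a on the side of Zbtb16, was called in the opposite direction in the averaged contrast (0.91, adjusted p = 0.0302, edgeR). The genes whose log2 CPM most resembled that of Htr3a over the 10 libraries were Tspan3 (r = 0.94), Ei24 (0.93), Thsd4 (0.93), Rab39b (0.92) and Colca2 (0.92), and all but the X-linked Rab39b are on chromosome 9. Htr1b lies on the same chromosome, 24.5 Mb from Neil1, outside the window.

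Htr2a lies on chromosome 14 at 74640874 to 74706859 (GRCm38.p6), 11.4 Mb from Neil2 at 63182439 to 63194154. Loss of NEIL2 gave Htr2a a log2 fold change of 0.20 in Neil2-/- against WT (SE 0.18, adjusted p = 0.770, edgeR) and 0.12 in Neil1-/-Neil2-/- against Neil1-/- (SE 0.23, adjusted p = 0.877, edgeR). Its closest tested neighbour passed the test in both comparisons of NEIL2-deficient mice with WT. Esd, which encodes S-formylglutathione hydrolase and lies 25.3 kb away, was lower in Neil1-/-Neil2-/- than in WT (-0.98, adjusted p = 0.00193, edgeR) and in Neil2-/- than in WT (-1.10, adjusted p = 2.45e-04, edgeR), and kept its call in all 18 other settings of both comparisons. Lrch1, 47.8 kb from Htr2a, was at -0.51 and -0.44 in the same comparisons without passing (adjusted p = 0.210 and 0.268, edgeR). Of 264 genes tested within 20 Mb of Neil2, with Htr2a left out of the count, 5 (1.89%) were called in Neil1-/-Neil2-/- against WT and 10 (3.79%) in Neil2-/- against WT, beside 0.322% and 0.3% of all genes tested. In the averaged contrast for NEIL2 loss 37 (14%) were called, beside 1.97% of all genes tested. Htr2a itself was at 0.16 in that contrast and was not called (SE 0.15, adjusted p = 0.630, edgeR). Whether sequence carried along with the targeted loci bears on the levels of Htr3a or Htr2a was not tested.

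**Figure D5:**
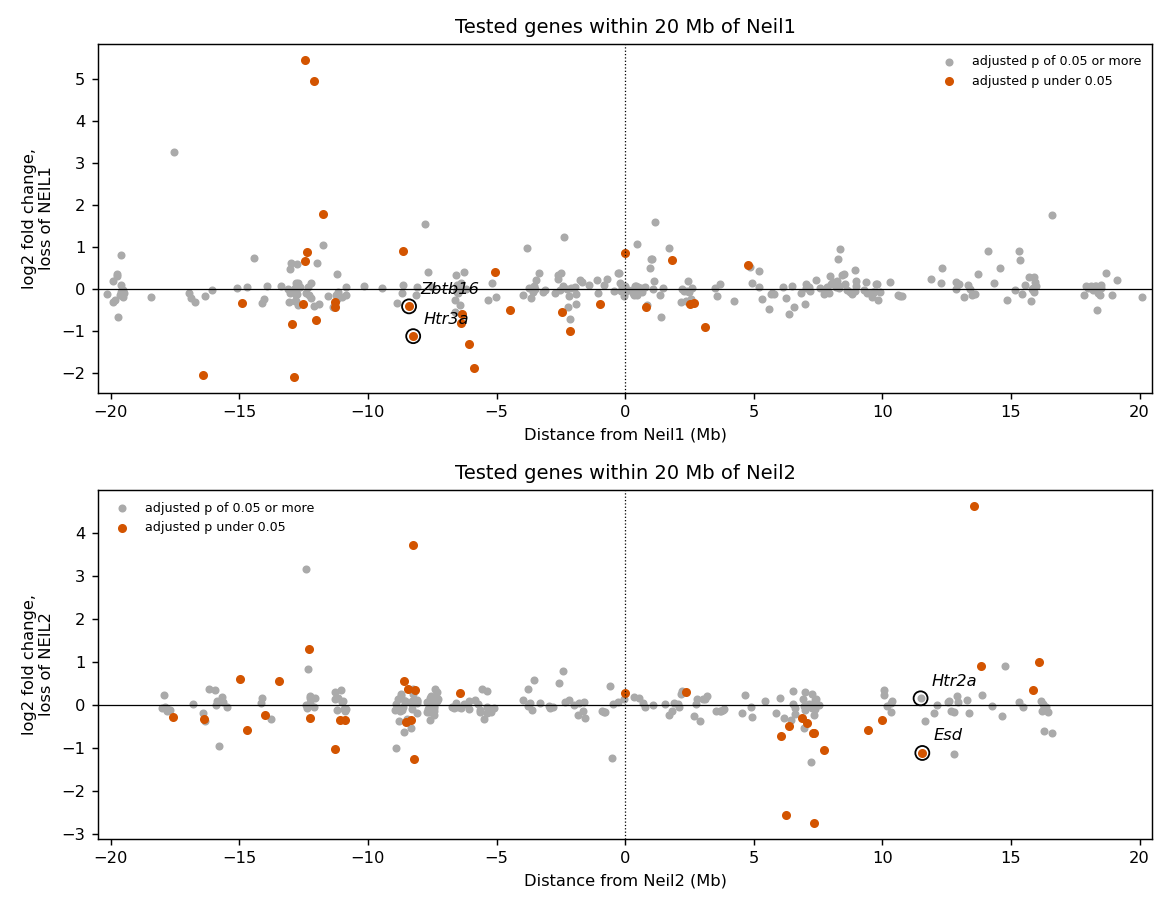
Log2 fold change of each tested gene within 20 Mb of Neil1 for the loss of NEIL1 (top) and of Neil2 for the loss of NEIL2 (bottom), against the distance from the targeted gene in Mb; orange points have an adjusted p under 0.05 (edgeR). Htr3a (-1.13) lies 8.23 Mb from Neil1 among other called genes, and Htr2a lies near 0 beside Esd (-1.11).

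The other genes of the serotonin system were few in this tissue. Of 4 further receptor genes, Htr1f, a Gi/o-coupled receptor, was the 1 that passed the filter, at 2.31 and 3.40 CPM in Neil1-/-Neil2-/-, 4.48 and 2.76 CPM in Neil1-/- and 3.31, 4.89 and 6.31 CPM in Neil2-/-, against 3.73, 4.21 and 4.07 CPM in WT. It was not called in any comparison, and its largest log2 fold change was -0.76 in Neil1-/-Neil2-/- against Neil2-/- (SE 0.30, adjusted p = 0.402, edgeR). Htr3b, the partner subunit of the 5-HT3 channel, had 2 counts in 1 Neil1-/-Neil2-/- library and 0 in the other 9, and Htr1d and Htr2b were also under the filter. Tph2, the enzyme that makes serotonin in neurons, had 4 to 12 counts in a library, and Slc6a4, the serotonin transporter, had 0 or 1. Of the 4 genes of serotonin synthesis, transport and breakdown that were tested, none was called in any genotype. Maoa, the monoamine oxidase with the higher affinity for serotonin, was at 30.5 and 25.9 CPM in Neil1-/-Neil2-/-, 19.6 and 20.1 CPM in Neil1-/- and 23.6, 27.9 and 23.1 CPM in Neil2-/-, against 21.5, 20.4 and 26.8 CPM in WT (0.30 in Neil1-/-Neil2-/- against WT, SE 0.13, adjusted p = 0.432, edgeR).

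Among 9 genes of receptor partners, chaperones and RNA editing, 1 was called in the 6 comparisons. Mpdz encodes a scaffold of many PDZ domains that binds the tail of the 5-HT2C receptor, and it was at 27.8, 24.3 and 23.3 CPM in Neil2-/- against 40.2, 35.2 and 36.2 CPM in WT mice. The log2 fold change was -0.56 (SE 0.09, adjusted p = 0.0262, edgeR). In Neil1-/-Neil2-/- it was at 29.8 and 29.4 CPM, also under all WT libraries, without passing (-0.33, SE 0.10, adjusted p = 0.237, edgeR), and in Neil1-/- it was at 37.3 and 41.0 CPM. The call in Neil2-/- against WT was lost without any 1 of replicates 2 and 3 of Neil2-/- and the 3 WT libraries, at adjusted p = 0.0558 to 0.145. Ric3, a chaperone of 5-HT3 receptors, was at 102 to 103 CPM in Neil1-/-Neil2-/- and 99.1 to 102 CPM in Neil1-/-, against 105 to 111 CPM in Neil2-/- and 109 to 112 CPM in WT, and its average over both backgrounds was -0.11 (SE 0.04, adjusted p = 0.314, edgeR).

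None of the 8 Gi/o, 9 Gq or 12 Gs coupling genes was called in any of the 6 comparisons, or in the averaged contrasts. In Neil1-/-Neil2-/- against WT their median log2 fold changes were -0.0053, 0.038 and 0.098, and in Neil1-/- against WT they were -0.048, -0.087 and 0.014, beside 0.0037 and 0.0040 over all genes tested. At an unadjusted p under 0.05, 2, 0 and 3 of them were below the threshold in Neil1-/-Neil2-/- against WT, where 11.1% of all genes tested were, and 3, 2 and 2 in Neil1-/- against WT, where 8.98% were.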

How the data were processed

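The sequencing company made the deposited table for the authors: low-quality reads were filtered, and expected counts per gene were estimated with RSEM on Bowtie2 alignments to reference transcripts. GRCm38 and mm10 are the builds named, HISAT, StringTie and GATK are also named, and versions and use of strand are not given in the sources used here. Of the deposited estimated counts 87.8% are whole numbers. The estimates were rounded for edgeR 4.0.16 under R 4.3.3, in which filterByExpr at its minimum of 10 counts kept 13982 of 18558 genes and all 10 receptors, followed by TMM scaling, glmQLFit with 1 mean per genotype over the 10 libraries, and 2-sided glmQLFTest, with Benjamini-Hochberg adjustment over all genes tested and a threshold of 0.05. The SE is the absolute log2 fold change divided by the square root of F. p-values measure the spread between 2 or 3 mice per genotype. Libraries were grouped where title and genotype label agree; 2 of 12 were not grouped. Exon lengths (GENCODE M21) and positions (RefSeq, GRCm38.p6) matched every receptor.

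The members and gene lists were chosen with earlier results of these data known. Named are all receptors, up to 4 called genes of each list, the 5 genes most like a called receptor, Neil1 and Neil2; neighbours, and unmoved markers, were chosen after their values were seen. Alternatives were median-ratio scaling, no filter, DESeq2 1.42.0, limma voom 3.58.1, a robust fit, a replicate block, a fit of the compared genotypes alone, an adjusted p under 0.1, each library left out, and replicate 2 of Neil1-/- with replicate 1 of Neil1-/-Neil2-/- left out. The averaged contrasts were added after the data were seen. The fit was tested on simulated counts. Figures used matplotlib 3.10.9.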

Additional observations from a re-analysis of the deposited data

Results flagged for a closer look

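Htr1a was at 141 and 128.5 CPM in the 2 libraries whose title and genotype label disagree, above all 3 WT libraries, which lay at 104 to 109 CPM when all 12 libraries were scaled together; these libraries belong to no comparison, and no test was made. The effect of NEIL2 loss on Npy was higher by 1.15 on the log2 scale on the Neil1-/- background than on the WT background (adjusted p = 0.00343 for the interaction, edgeR). For Drd1 the same difference was 4.44 (adjusted p = 0.0493, edgeR), and its call held in 5 of 17 other settings, against 17 of 17 for Npy.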

How the results depend on the processing

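The count of receptors called stayed at 0 in Neil1-/- against WT, Neil2-/- against WT, Neil1-/-Neil2-/- against Neil1-/-, the interaction and the loss of NEIL2 under every alternative run. In Neil1-/-Neil2-/- against WT it was 1 with DESeq2 (Htr3a) and 0 to 1 with a library left out (Htr7, without replicate 2 of Neil1-/-Neil2-/-). Against Neil2-/- it was 1 without the filter (Htr3a), 1 with DESeq2 (Htr3a) and 0 to 1 with a library left out (Htr7, at 1.89, with a spread taken from the other genotypes, since 1 library was left in its own). Htr7 there reversed to -0.026 without replicate 1 of Neil1-/-Neil2-/- and to -0.026 when replicate 2 of Neil1-/- was left out with it. For the averaged loss of NEIL1, 1 receptor was called, against 2 without the filter, 3 with DESeq2, 0 with the replicate block, 0 to 2 with a library left out (Htr3a and Htr5b without replicate 1 of Neil1-/-) and 0 with both libraries that stand apart left out. Htr3a kept a fold change of -1.24 to -1.03 over the 17 alternatives and its call in 10. Replicate numbers gave no clear sign of pairing: of 13 same-numbered pairs, 3 had deviations correlated over 0.1 (r = -0.23 to 0.25). In a group of 2 mice the deviations mirror each other, so these pairs are not independent and cannot settle whether mice were paired. With the replicate block Htr3a was at -1.17 (adjusted p = 0.0624, edgeR) and Mpdz in Neil2-/- against WT at -0.57 (adjusted p = 0.0553, edgeR). The genes called among all tested in Neil1-/-Neil2-/- against WT (45) were 17 to 247 with a library left out and 186 with DESeq2, against Neil2-/- (31) 14 to 328 and 149, in Neil1-/- against WT (28) 17 to 26 and 86, and in Neil2-/- against WT (42) 15 to 48 and 158. For Neil1-/-Neil2-/- against Neil1-/- (64) they were 12 to 153 and 278, for the interaction (13) 10 to 41 and 30, and for the averaged loss of NEIL1 (63) 32 to 198 and 250 and of NEIL2 (276) 75 to 356 and 622. The causes were not tested. With 2 or 3 mice a group and 39 to 119 counts of Htr3a in a library, small differences were not detectable at this depth.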

Other observations

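The 2 libraries whose title and genotype label disagree carry on both readings a genotype that lacks NEIL1. Their Htr3a levels were 1.28 and 1.43 CPM, from 26 and 29 counts, beside 3.45 to 5.36 CPM in WT when all 12 libraries were scaled together. Htr1b was at 4.67 and 6.17 CPM, beside 7.25 to 8.88 CPM in WT. Htr2a was at 5.75 and 6.42 CPM, beside 5.80 to 7.48 CPM in WT. Htr5b was at 33.3 and 22.9 CPM and Htr7 at 0.589 and 2.02 CPM. These are single values with no test. Among the markers of other cells, Cldn5, a tight junction protein of blood vessel endothelium, was lower in Neil2-/- than in WT (-0.93, adjusted p = 0.0216, edgeR), and Ppp1r1b was higher (0.44, adjusted p = 0.0475, edgeR), a call that held in 5 of 18 other settings.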
